A study of Mus musculus with 3 samples.

Results

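Xenobiotic metabolism genes are described here across 3 RNA libraries of mouse pup intestine. They are the genes whose symbols place them in families 1 to 4 of the cytochromes P450 (CYP), or among the UDP-glucuronosyltransferases (UGT), glutathione S-transferases (GST), cytosolic sulfotransferases (SULT) or carboxylesterases (CES). The rule used symbols alone and no measured value. It found 165 of the 21983 genes of the table, all of them protein-coding: 81 CYP, 22 UGT, 22 GST, 21 SULT and 19 CES genes. The series holds 1 library in each of 3 groups of wild-type pups, all taken 96 h into the protocol. The control library came from pups that were left with the dam and given PBS. The NEC library models necrotizing enterocolitis, a bowel disease of preterm infants, and its pups received 40 µl of 33% formula by gavage every 4 h, with hypoxia (99.9% N2, 100 s) and then cold (4 °C, 10 min) at intervals of 12 h, and PBS. The PCI34051+NEC library came from pups of that model given PCI34051, an inhibitor selective for the lysine deacetylase HDAC8, at 10 mg/kg/d for 5 days in place of PBS. Formula, hypoxia and cold were applied together, so their parts cannot be told apart. The labels give neither the strain, the age or the sex of the pups nor the bowel segment, and whether 1 pup or several were pooled for a library is not said.

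Foreign and endogenous lipophilic compounds are metabolised in successive steps. Carboxylesterases cleave esters and cytochromes P450 insert oxygen, and the products are then joined to glucuronic acid by UGTs, to sulfate by SULTs or to glutathione by GSTs, which makes them more soluble for export. The intestinal epithelium is a site of this first-pass metabolism next to the liver, and several of these genes are known to be set by ligand-activated receptors such as AHR, PXR and PPARA.

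Total counts were 15076413 for control, 10650638 for NEC and 16497580 for PCI34051+NEC. There was no replicate in any group, so no difference below was set against a spread between animals, p-values could not be had, and values describe these libraries alone. Levels are TMM-scaled read counts relative to library size (counts per 1e6, CPM). A fold is the ratio of such levels, with a 95% interval in parentheses that covers counting error only. Before the results, the NEC library stood apart: mitochondrially encoded genes took 32.4% of its counts, 4.88% of the control's and 3.73% of those from PCI34051+NEC. Intestinal epithelium was present in every library, with 12 enterocyte marker genes summing to 45381, 20434 and 109652 CPM in the order control, NEC, PCI34051+NEC. The 8 markers of suckling enterocytes were instead highest in the control by their sum, at 9959, 1507 and 6846 CPM. In the same order, 10 smooth muscle markers summed to 1585, 12064 and 1514 CPM and 8 fibroblast markers to 776, 2698 and 728 CPM. Of 5 markers of duodenum and jejunum, which summed to 12.7, 83.8 and 424 CPM, Gata4 was at 3.21, 8.95 and 46.4 CPM. The 3 ileum markers summed to 756, 338 and 983 CPM, so their sum was highest in PCI34051+NEC as well. The 6 colon markers summed to 28.19, 7.12 and 24.04 CPM. The Y-linked gene Eif2s3y had 999, 0 and 1134 counts, so RNA of this gene was found in control and PCI34051+NEC and not in NEC. The labels give no sex, and this rests on Eif2s3y alone. A difference of sex cannot be told apart from the group in either comparison with NEC. The part of these marker differences in the results was not tested, and in bulk RNA fewer cells of a type and less RNA per cell cannot be told apart.

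Of the 165 genes, 44 (26.7%) had no count in any library, against 20.2% of all genes in the table. A further 33 had counts but stayed under 1 CPM, 88 reached 1 CPM in at least 1 library and 46 reached 10 CPM. A count of 0 allows up to 0.189 CPM (control), 0.274 CPM (NEC) and 0.197 CPM (PCI34051+NEC), taking 3 counts as the limit. Genes without a count included Cyp1a1, the classical AHR-induced P450, Cyp2b10, the classical CAR-induced P450, and all 3 pi-class genes Gstp1, Gstp2 and Gstp3. The others without a count were 16 more CYP, 10 UGT, 10 SULT and 3 CES genes. The 5 families together took 0.275% of the counts of control, 0.174% of NEC and 0.468% of PCI34051+NEC. Those totals include the mitochondrially encoded genes, which took 32.4% in NEC, so the low share there partly follows from them.

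The families differed in how their summed levels stood across the libraries. The summed level of all 165 genes was 2610 CPM for control, 1693 CPM for NEC and 5072 CPM for PCI34051+NEC. Carboxylesterases summed to 552, 72.6 and 528 CPM, so the NEC library was 7.60-fold lower (7.07 to 8.18) than the control and the PCI34051+NEC library near it. The UGT sum was 254, 122 and 705 CPM, which put the PCI34051+NEC library 2.78-fold higher (2.68 to 2.88) than the control and 5.80-fold higher (5.48 to 6.14) than the NEC library. SULT genes summed to 366 and 393 CPM in control and NEC, and to 1303 CPM in PCI34051+NEC, 3.56-fold higher (3.46 to 3.67) than in the control. The GST sum was 791, 510 and 1382 CPM and the CYP sum 648, 595 and 1154 CPM. Thus the NEC library had the lowest sum in each family but SULT, and the PCI34051+NEC library the highest in each family but CES.

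**Figure D1:**
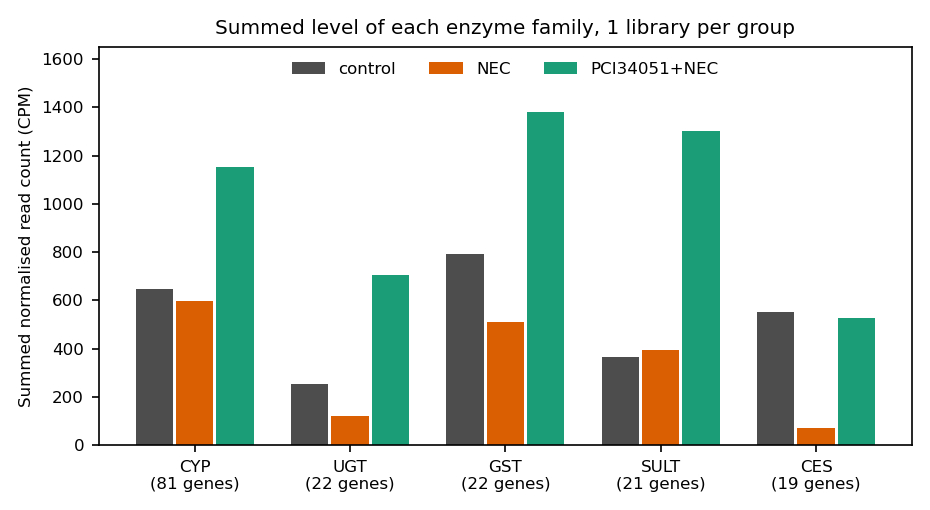
Bars give the summed normalised read count (CPM, linear axis from 0) of each enzyme family by library (control, NEC, PCI34051+NEC), 1 library per group and no error bars. CES stands at 552, 72.6 and 528 CPM, while UGT, GST, SULT and CYP are highest in the PCI34051+NEC library.

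Gene by gene, a member was measured in a comparison if it reached 1 CPM in at least 1 of its libraries, and it was counted as higher or lower when the libraries were at least 2-fold apart on log2(CPM + 1). That scale understates differences of low genes. A gene that passes the minimum only through its higher library has to differ, so the counts describe the measured members and are read beside those of all genes passing the same minimum. The first comparison, NEC against control, asks how the intestine of the model differs from that of dam-fed pups. Of 86 measured members, 36 were higher and 16 lower in the NEC library, where 24.2% of all 14627 measured genes were higher and 22.9% lower. The members' median log2 fold was 0.48, beside -0.03 over all genes. It turned to -0.10 at a minimum of 5 CPM, where that of all genes was -0.14, and a pseudocount of 4 left 13 members counted as higher. Abundance divided them: of the 48 members whose higher level was 5 CPM or above, 16 were higher and 14 lower (all genes at that level: 22.9% and 25.2%), whereas of the 38 between 1 and 5 CPM, 20 were higher and 2 lower (all such genes: 29.8% and 13%).

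By family, 22 of 41 measured CYP genes were higher and 5 lower in NEC than in control, with a median log2 fold of 1.04. No UGT gene of 8 was higher and 2 were lower (median -0.47), and 4 GST genes of 18 were higher and 5 lower (median -0.61). Among SULT genes 5 of 9 were higher and 3 lower (median 1.07), and among CES genes 5 of 10 were higher and 1 lower (median 0.83, or -1.54 at a minimum of 5 CPM). The CES genes thus went against their own sum, because a single lower gene, Ces2e, made up most of it.

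The comparison of PCI34051+NEC with NEC asks what differs when the inhibitor is given in the model. Of 85 measured members, 23 were higher and 26 lower in the PCI34051+NEC library, close to the 25% higher and 25.6% lower among all genes, and the median log2 fold was 0.17. All 8 measured UGT genes were higher (median 2.41), as were 5 of 17 GST genes, with 3 lower (median 0.85). Of 42 CYP genes 6 were higher and 17 lower (median -0.83), of 8 SULT genes 3 were higher and 4 lower (median -0.31), and of 10 CES genes 1 was higher and 2 were lower (median -0.53). These last 3 medians turn with the minimum: at 5 CPM they were 0.31 for CYP, 0.57 for SULT and 1.46 for CES, and the SULT median was also above 0 with a pseudocount of 4 (0.069) and with no minimum (0.41). The median over all members was -0.13 with no minimum. Between 1 and 5 CPM 0 of 32 members were higher and 15 lower (all such genes: 7.64% and 33.3%), and from 5 CPM up 23 of 53 were higher and 11 lower (all such genes: 29% and 23.9%). Both comparisons use the same NEC library, so they are not independent of each other.

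The comparison of PCI34051+NEC with control asks how far treated pups of the model differ from dam-fed pups. Here 27 of 72 measured members (37.5%) were higher and 7 (9.72%) lower, where 6.55% of all genes were higher and 6.55% lower. The members' median log2 fold was 0.47, beside -0.00 over all 13652 measured genes. Of 8 UGT genes 7 were higher and 0 lower (median 1.81). Higher members of the other families were 10 of 31 CYP, 6 of 18 GST, 3 of 8 SULT and 1 of 7 CES genes, and lower members numbered 5, 1, 1 and 0 in that order. Among the 48 members from 5 CPM up, 22 were higher and 2 lower (all such genes: 7.29% and 5.45%). Of the 24 between 1 and 5 CPM, 5 were higher and 5 lower, with a median of -0.02 (all such genes: 3.56% and 10.9%). Scaling by total counts in place of TMM moved the median of all genes to -0.18 in this comparison, with 4.65% higher and 9.23% lower, and gave 24 members higher and 10 lower. In PCI34051+NEC against NEC it moved the median of all genes to -0.14, with 21.5% higher and 28.5% lower, and gave 23 members higher and 29 lower.

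**Figure D2:**
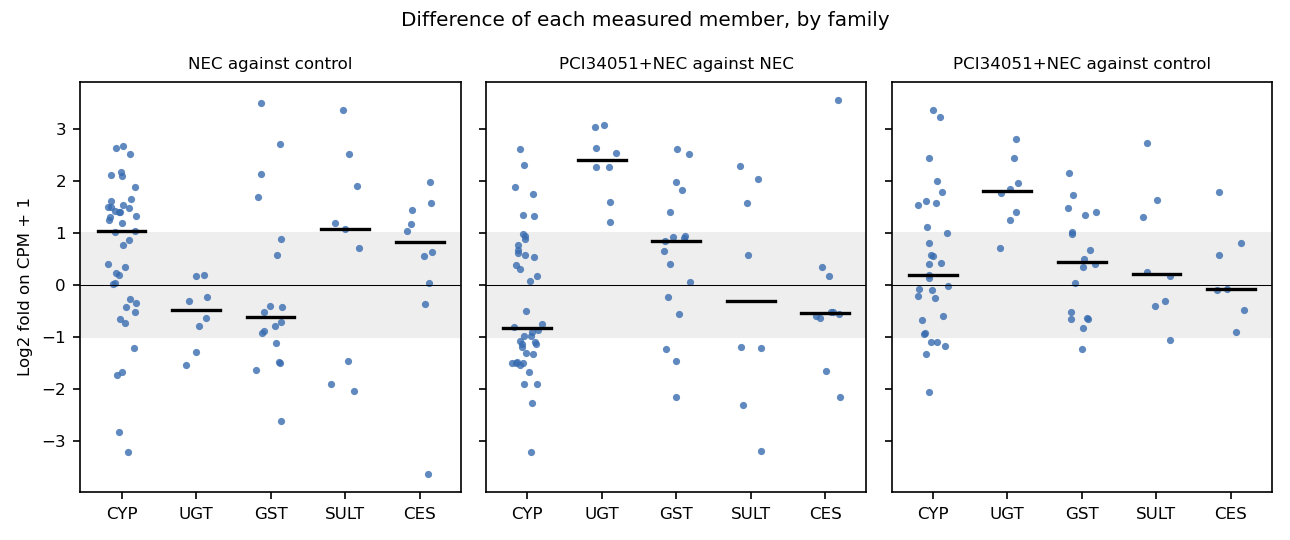
Each point is a measured gene, placed by its log2 fold on CPM + 1 (vertical axis) in the comparison named above each panel and by family; black lines are family medians and the grey band marks differences under 2-fold. The 8 UGT genes lie above the band in PCI34051+NEC against NEC, with a median of 2.41, while 17 CYP genes lie below it.

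Among carboxylesterases, Ces2e (chromosome 8, 104926260 to 104934672, plus strand, mm10), a member of the CES2 group that handles ester prodrugs in the gut, held 97.2%, 56.5% and 96.5% of the family's level per kb of exon in control, NEC and PCI34051+NEC. It was at 538 CPM (control), 42.6 CPM (NEC) and 511 CPM (PCI34051+NEC). The NEC library was 12.6-fold lower (11.5 to 13.9) than the control, and the PCI34051+NEC library was 12.0-fold higher (10.9 to 13.2) than the NEC library, while control and PCI34051+NEC were within 1.1-fold of each other. The remaining CES genes were low. Ces2a was at 6.48, 9.95 and 6.04 CPM in the same order, Ces2c at 0.315, 2.56 and 3.55 CPM and Ces3a, a liver esterase, at 0.503, 4.93 and 0.328 CPM. Ces2a differed little, Ces2c was lowest in the control and Ces3a was near 0 outside the NEC library. The carboxylesterase genes lie in a pair of groups on chromosome 8.

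Promoter windows are shown for 6 genes on which the results turn, as the 250 bases before the start of transcription given by RefSeq (build GRCm38.p6, which mm10 names as well). Each was searched on both strands for GCGTG, the core bound by AHR with its partner ARNT, for TGACNNNGC, the antioxidant response element core, and for TATAAA, the TATA box. Matches of different motifs may overlap, and capitals mark them. Over 32851 RefSeq promoters of that length, 28.2% held GCGTG, 10.2% TGACNNNGC and 12.4% TATAAA. Counted by gene, over 16501 genes of the table, the shares were 37.8%, 12.2% and 13.3%. Of the 165 genes, 138 had such a window, and 24 of them (17.4%) held GCGTG, 5 (3.62%) TGACNNNGC and 41 (29.7%) TATAAA. A match is a run of letters and no shown site. The window of Ces2e (chr8:104926010-104926259, plus strand), low in NEC, held none of the motifs.
Ces2e: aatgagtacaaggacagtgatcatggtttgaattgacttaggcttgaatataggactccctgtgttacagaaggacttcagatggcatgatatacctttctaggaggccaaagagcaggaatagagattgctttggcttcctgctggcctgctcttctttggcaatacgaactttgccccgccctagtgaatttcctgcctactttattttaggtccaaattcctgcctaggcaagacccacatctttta

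The most abundant cytochromes P450 differed from one another in where they were highest. Cyp3a13, an intestinal CYP3A enzyme (chromosome 5, 137892932 to 137921619, minus strand), was the most abundant per kb in the PCI34051+NEC library, with 40.1% of the family's level. It was at 145 CPM (control), 148 CPM (NEC) and 504 CPM (PCI34051+NEC), 3.47-fold higher (3.32 to 3.64) in PCI34051+NEC than in control, while NEC was 1.02-fold higher (0.959 to 1.09) than control. Cyp2w1, a P450 known from the developing gut, held the largest share in the control, 25.0%. It stood at 95.4 CPM (control), 9.41 CPM (NEC) and 62.4 CPM (PCI34051+NEC), 10.1-fold lower (8.30 to 12.5) in NEC than in control. Of the arachidonate-metabolising Cyp2c genes, Cyp2c68 was at 83.7, 24.4 and 124 CPM in the same order, 3.43-fold lower in NEC than in control. Cyp2c65, a Cyp2c gene of the gut, was lowest in the control, at 0.503, 3.20 and 14.6 CPM, 28.97-fold higher (14.5 to 67.9) in PCI34051+NEC than in control. Its neighbour Cyp2c55 had 1, 22 and 73 counts. Cyp2c23, another arachidonate epoxygenase, was instead highest in the control: at 8.68, 0.365 and 1.31 CPM it was 23.8-fold lower (9.08 to 88.5) in NEC than in control and 6.61-fold lower (4.12 to 11.2) in PCI34051+NEC. The window of Cyp2c65 (chr19:39060756-39061005, plus strand) held 1 TATAAA.
Cyp2c65: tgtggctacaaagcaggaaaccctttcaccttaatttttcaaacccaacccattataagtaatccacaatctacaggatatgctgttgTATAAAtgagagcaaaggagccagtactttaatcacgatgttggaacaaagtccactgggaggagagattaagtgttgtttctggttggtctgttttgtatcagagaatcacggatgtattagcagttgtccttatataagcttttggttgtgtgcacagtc

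Other P450 genes that were lowest in the control included Cyp2d26, at 1.64, 15.4 and 23.6 CPM and 14.5-fold higher (9.70 to 22.4) in PCI34051+NEC, and Cyp2d22, related to the human drug-metabolising CYP2D6, at 5.73, 37.7 and 19.6 CPM. Cyp3a11, a classical PXR target that is abundant in liver, had 3, 72 and 39 counts, which made NEC 34.8-fold higher (11.5 to 173) and PCI34051+NEC 13.6-fold higher (4.31 to 68.7) than the control. Its interval is wide because the control had 3 counts. Cyp3a25 was at 1.07, 5.39 and 7.29 CPM. The epoxygenase Cyp2j6 was at 50.3, 92.1 and 148 CPM, 2.94-fold higher (2.71 to 3.19) in PCI34051+NEC than in control. A different group was highest in NEC and lower in both other libraries. Cyp1b1, an AHR target found outside the liver, was at 4.72, 20.1 and 6.57 CPM, 4.26-fold higher (3.26 to 5.61) in NEC than in control. Cyp2e1, the ethanol-inducible P450 of liver, was at 1.70, 10.69 and 0.263 CPM, and PCI34051+NEC was 40.7-fold lower (15.5 to 152) than NEC. Cyp2j9 was at 1.07, 8.40 and 3.48 CPM and Cyp4f40 at 3.84, 10.5 and 3.09 CPM. The fatty acid hydroxylase Cyp2u1 was lowest in PCI34051+NEC, with 28.0, 19.3 and 10.6 CPM, 2.65-fold lower (2.21 to 3.19) in PCI34051+NEC than in control.

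Among the Cyp4f genes, which hydroxylate leukotrienes and fatty acids at the omega end, Cyp4f13 was at 93.6, 77.8 and 88.3 CPM and Cyp4f16 at 58.6, 24.7 and 64.6 CPM. Cyp4f14, the leukotriene B hydroxylase, was at 10.3, 5.75 and 15.9 CPM, and Cyp4f17 was at 5.22, 7.21 and 4.80 CPM. Cyp2s1, an extrahepatic P450, was at 27.2, 21.4 and 26.7 CPM. Cyp4f13 and Cyp2s1 were less than 1.5-fold apart in every comparison. Some mouse P450 genes are known to differ by sex in adult liver, and a pair of them was low here. Cyp2d9 had 0, 18 and 7 counts and Cyp4a12a 7, 4 and 23 counts, too few to set beside Eif2s3y.

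The glucuronosyltransferases were the family that stood highest in the PCI34051+NEC library, gene by gene. Ugt1a1 (chromosome 1, 88211959 to 88218997, plus strand), the enzyme that conjugates bilirubin, was at 13.8 CPM (control), 11.6 CPM (NEC) and 102 CPM (PCI34051+NEC). PCI34051+NEC was 7.40-fold higher (6.42 to 8.56) than control and 8.79-fold higher (7.33 to 10.6) than NEC, and control and NEC were within 1.2-fold. Ugt1a7c was at 16.4, 9.13 and 61.9 CPM in the same order, 3.77-fold higher (3.29 to 4.34) in PCI34051+NEC than in control. Ugt1a9 was at 1.95, 1.37 and 10.5 CPM. These 3 were the only Ugt1a genes of 9 to reach 1 CPM. They share their last exons in one locus, and 56.1% (Ugt1a1), 49.9% (Ugt1a7c) and 57.5% (Ugt1a9) of their 150-base stretches with other genes. How the counting divided reads between them is not given, so the values of single Ugt1a genes are uncertain.

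Ugt2b34, a UGT2B gene, held 55.8%, 44.9% and 46.0% of the family's level per kb in the 3 libraries. It was at 177 CPM (control), 71.9 CPM (NEC) and 424 CPM (PCI34051+NEC), 2.47-fold lower (2.28 to 2.67) in NEC and 2.39-fold higher (2.28 to 2.50) in PCI34051+NEC than in control. Ugt2b5 was at 26.7, 8.49 and 44.7 CPM, lowest in NEC as well. Ugt2b35, at 5.54, 6.39 and 21.3 CPM, and Ugt2b36, at 9.12, 10.6 and 25.9 CPM, were within 1.2-fold between control and NEC. Ugt2a3, a glucuronosyltransferase of gut and liver that accepts bile acids, had 29, 9 and 219 counts, or 1.82, 0.822 and 14.4 CPM, and PCI34051+NEC was 7.88-fold higher (5.34 to 12.1) than control. Each of the 8 measured UGT genes had its highest level in PCI34051+NEC, and 7 of them were at least 2-fold above control there, Ugt2b5 being the exception at 1.67-fold higher. The windows of Ugt1a1 (chr1:88211709-88211958, plus strand) and Ugt2a3 (chr5:87337196-87337445, minus strand), on different chromosomes and both high in PCI34051+NEC, held none of the motifs.
Ugt1a1: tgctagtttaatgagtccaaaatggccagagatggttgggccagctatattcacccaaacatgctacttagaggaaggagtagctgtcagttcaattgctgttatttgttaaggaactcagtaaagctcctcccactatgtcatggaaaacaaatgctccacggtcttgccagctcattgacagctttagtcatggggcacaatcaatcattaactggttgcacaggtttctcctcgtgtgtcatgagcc
Ugt2a3: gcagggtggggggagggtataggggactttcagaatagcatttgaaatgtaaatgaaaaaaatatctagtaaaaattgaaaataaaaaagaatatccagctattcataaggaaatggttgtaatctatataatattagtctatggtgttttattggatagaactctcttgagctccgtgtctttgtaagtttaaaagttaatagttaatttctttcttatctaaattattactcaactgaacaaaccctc

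Among sulfotransferases, Sult1d1 (chromosome 5, 87554645 to 87569027, minus strand), which sulfates phenols and catecholamines, made up 44.0% of the family's level per kb in the control, 65.7% in NEC and 80.3% in PCI34051+NEC. It was at 151 CPM (control), 247 CPM (NEC) and 1015 CPM (PCI34051+NEC), 6.70-fold higher (6.42 to 6.999) in PCI34051+NEC than in control and 1.63-fold higher (1.55 to 1.73) in NEC. Sult1b1, a thyroid hormone and phenol sulfotransferase that lies beside it, was at 166 CPM (control), 39.5 CPM (NEC) and 197 CPM (PCI34051+NEC). These neighbours differed in NEC: Sult1b1 was 4.20-fold lower (3.79 to 4.66) there than in control. Sult2b1, the cholesterol sulfotransferase, was lowest in the control, at 19.4, 41.9 and 62.7 CPM. Sult6b2 was lowest in NEC, at 19.4, 4.48 and 15.4 CPM. The window of Sult1d1 (chr5:87569007-87569256, minus strand) held 1 GCGTG, read on the other strand.
Sult1d1: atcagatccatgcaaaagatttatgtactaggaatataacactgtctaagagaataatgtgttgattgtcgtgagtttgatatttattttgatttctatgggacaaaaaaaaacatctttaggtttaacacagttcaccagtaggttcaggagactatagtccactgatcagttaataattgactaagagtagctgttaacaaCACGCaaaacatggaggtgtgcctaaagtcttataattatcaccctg

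A second set of sulfotransferases was highest in the NEC library. Sult5a1 was at 0.881, 18.4 and 1.12 CPM, 20.9-fold higher (12.2 to 39.0) in NEC than in control and 16.52-fold lower (10.1 to 28.9) in PCI34051+NEC than in NEC. Sult4a1, an orphan sulfotransferase best known from brain, was at 5.10, 21.8 and 3.61 CPM. Sult1a1, the general phenol sulfotransferase, was at 2.39, 18.4 and 7.36 CPM, and PCI34051+NEC stayed 3.08-fold higher (2.11 to 4.57) than control. Sult5a1 and Sult4a1 in PCI34051+NEC were within 1.5-fold of their control levels, and Sult1a1 was not.

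The glutathione S-transferases divided by class and within classes. Gsto1, the omega-class enzyme that reduces dehydroascorbate, held 65.4% of the family's level per kb in the control, 27.1% in NEC and 70.3% in PCI34051+NEC. It was at 513 CPM (control), 164 CPM (NEC) and 1016 CPM (PCI34051+NEC), 3.12-fold lower (2.97 to 3.29) in NEC than in control and 6.19-fold higher (5.89 to 6.50) in PCI34051+NEC than in NEC. The other omega-class gene, Gsto2, had 29, 7 and 3 counts, and it was the only GST gene of 18 counted as lower in PCI34051+NEC than in control. Gstm1, a mu-class enzyme, led the family in NEC with 32.2%. It was at 11.6 CPM (control), 142 CPM (NEC) and 31.01 CPM (PCI34051+NEC), 12.2-fold higher (10.5 to 14.3) in NEC and 2.66-fold higher (2.24 to 3.17) in PCI34051+NEC than in control. Gstm4, its neighbour in the same array, had the reverse order, at 39.6, 5.66 and 25.2 CPM, 6.99-fold lower (5.38 to 9.23) in NEC than in control. RefSeq gives Gstm1 a pair of starts, and the window of the second (chr3:108017819-108018068, minus strand) held 1 GCGTG and 1 TATAAA.
Gstm1: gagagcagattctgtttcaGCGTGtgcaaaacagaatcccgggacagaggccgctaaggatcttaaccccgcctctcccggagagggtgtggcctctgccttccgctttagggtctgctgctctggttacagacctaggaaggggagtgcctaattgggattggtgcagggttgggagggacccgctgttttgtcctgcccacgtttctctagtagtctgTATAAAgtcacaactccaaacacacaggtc

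The other mu-class genes were Gstm2, at 11.0, 38.1 and 32.4 CPM, Gstm3, at 2.01, 4.57 and 9.07 CPM, Gstm5, at 23.0, 16.8 and 33.0 CPM, Gstm6, at 4.91, 3.47 and 10.9 CPM, and Gstm7, at 4.84, 3.11 and 6.70 CPM. All 7 genes of the array (chromosome 3, 107895821 to 108044894) reached 1 CPM. In NEC against control 2 were higher and 1 lower (all genes: 24.2% and 22.9%). In PCI34051+NEC against control 4 were higher and 0 lower (all genes: 6.55% each way). Genes of the theta, kappa and zeta classes follow. Gstt1 was at 7.42, 11.6 and 4.34 CPM and Gstt3 at 25.0, 13.2 and 25.7 CPM, while Gstt2 had 528, 219 and 318 counts. Gstk1, the mitochondrial and peroxisomal class, was at 14.7, 4.57 and 7.82 CPM, 3.22-fold lower (2.37 to 4.47) in NEC than in control. Gstz1, which also serves tyrosine breakdown, was at 31.3, 16.0 and 21.5 CPM.

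The alpha-class genes went different ways. Gsta1 was lowest in the control, at 3.398 CPM (control), 27.9 CPM (NEC) and 18.6 CPM (PCI34051+NEC), 8.23-fold higher (6.14 to 11.2) in NEC than in control. Gsta2 was lowest in NEC, at 24.2 CPM (control), 10.6 CPM (NEC) and 65.4 CPM (PCI34051+NEC), 2.28-fold lower (1.85 to 2.83) than in control. Gsta3 was also lowest in NEC, at 38.0, 13.0 and 48.7 CPM, and Gsta4, which clears the lipid peroxidation product hydroxynonenal, was highest there, at 2.64, 14.98 and 4.80 CPM. Gsta1 and Gsta2 are near copies: their coding sequences (GENCODE, mm10) differ at 13 of 666 bases, 98.0% identity, with a longest shared stretch of 196 bases. Of their 150-base stretches, Gsta1 shares 68% and Gsta2 19.6% with another gene, so their separate values are uncertain. The stretch with the most differences close together, coding bases 419 to 508, holds 5 of the 13, which the capitals mark.
Gsta1: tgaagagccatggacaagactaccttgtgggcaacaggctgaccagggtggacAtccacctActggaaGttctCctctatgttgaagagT
Gsta2: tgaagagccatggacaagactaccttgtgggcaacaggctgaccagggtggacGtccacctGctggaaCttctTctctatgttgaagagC

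**Figure D3:**
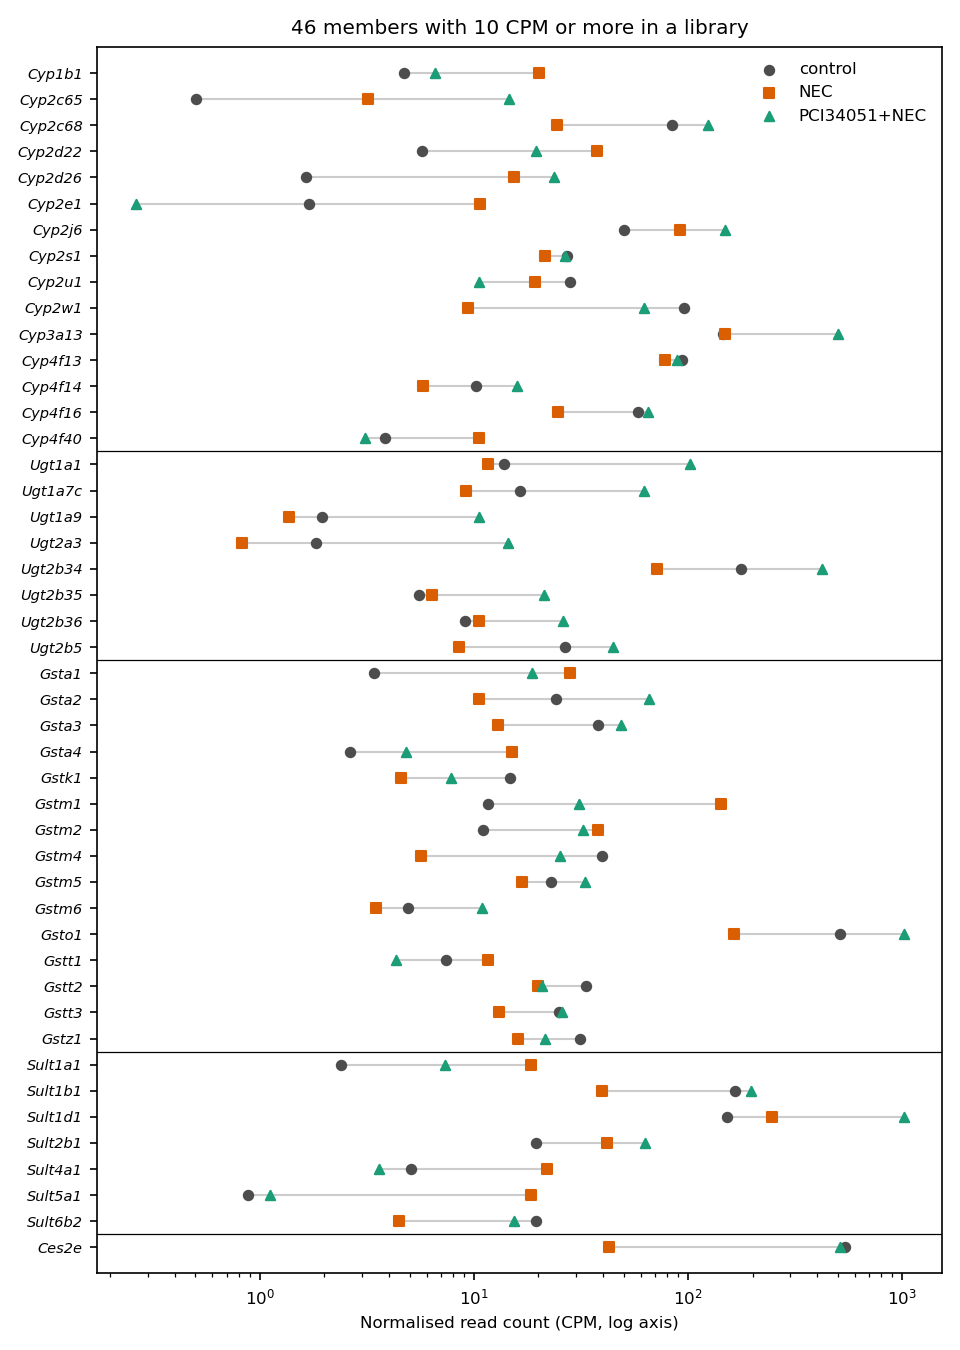
Each line is 1 of the 46 genes with 10 CPM or more in a library, and points give the normalised read count (CPM, log axis) by library (control, NEC, PCI34051+NEC), 1 library each. The 8 UGT genes all have their rightmost point in PCI34051+NEC, Ces2e is at 42.6 CPM in NEC beside 538 and 511 CPM, and Gstm1 is at 142 CPM in NEC beside 11.6 and 31.01 CPM.

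A further set of members was picked by its values, so its near absence outside the NEC library follows from the rule. There were 12 members at least 2-fold higher in NEC than in both other libraries with at most 10 counts in each of those, a limit chosen after the values were seen (3.46% of 14718 measured genes met both conditions): Ces1g, Ces3a, Cyp1a2, Cyp2a12, Cyp2a22, Cyp2c29, Cyp2c37, Cyp2c50, Cyp2j5, Cyp4a14, Cyp4a32 and Sult2a8. Without the limit on counts, 22 of 88 members (25%) were highest in NEC by that margin, beside 19.5% of all genes. Each of the 12 had between 13 and 54 counts (1.19 to 4.93 CPM) in NEC. Together they had 31 counts (control), 312 counts (NEC) and 7 counts (PCI34051+NEC), or 1.95, 28.5 and 0.460 CPM. Many of them are enzymes best known from liver. Cyp3a11, abundant in liver too, fell outside the limit with 39 counts in PCI34051+NEC. Cyp1a2, the hepatic AHR target, had 10, 30 and 0 counts, and Cyp4a14, a PPARA target, 2, 42 and 0 counts.

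A set of 7 defining hepatocyte markers stood in the same order by its sum, and a wider list did not. The 7 defining markers Alb, Ahsg, Apoh, Fgb, Fgg, Hpx and Serpina3k summed to 36.9, 164 and 17.0 CPM. Of these, 6 were at least 2-fold higher in NEC than in control, and the same number were lower in PCI34051+NEC than in NEC. Alb was at 9.31, 100.4 and 0.394 CPM, and Serpina3k had no count in PCI34051+NEC. Over the wider list of 15 hepatocyte markers, some of which the gut also makes, the sums were 1579, 557 and 1688 CPM, lowest in NEC. Of these 15, 10 were higher and 4 lower in NEC than in control (all genes: 24.2% and 22.9%). In PCI34051+NEC against NEC 4 were higher and 9 lower (all genes: 25% and 25.6%). The part of RNA from liver cells in the levels of these 12 genes was not tested. Of the members higher in NEC than in control, 30 had a promoter window and 16 of those (53.3%) held TATAAA. So did 2 of 15 among the lower members and 7 of 26 (26.9%) among members higher in PCI34051+NEC than in control. The share was 29.7% over all 138 members with a window and 13.3% over 16501 genes of the table.

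**Figure D4:**
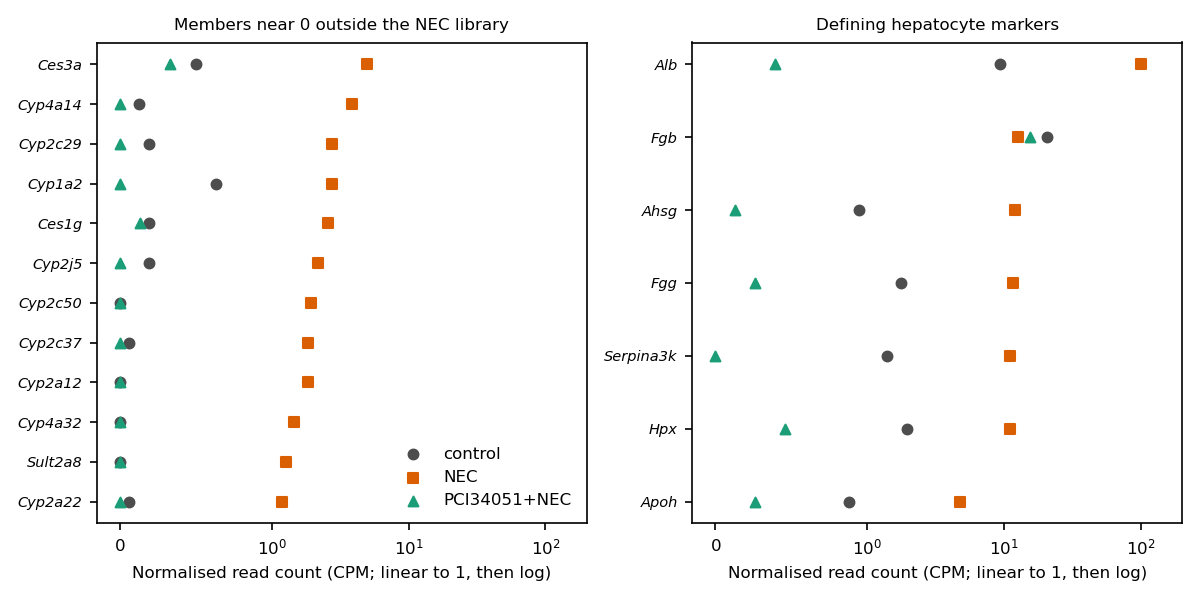
Left, the 12 genes picked for being near 0 outside the NEC library, and right, 7 defining hepatocyte markers. Points give the normalised read count (CPM, linear to 1 and log above) by library (control, NEC, PCI34051+NEC). The 12 genes lie between 1.19 and 4.93 CPM in NEC, and Alb is at 9.31, 100 and 0.394 CPM.

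Many members lie in arrays, and neighbours could be compared. The stretch of chromosome 5 from 86889767 to 87591594 holds 13 of them, the Ugt2b and Ugt2a genes with Sult1b1, Sult1d1 and Sult1e1. Of these, 7 reached 1 CPM: Ugt2b34, Ugt2b35, Ugt2b36, Ugt2b5, Ugt2a3, Sult1b1 and Sult1d1. All 7 were higher in PCI34051+NEC than in NEC, 5 were higher than in control, and 3 were lower in NEC than in control. These genes are also in the family counts above, so the array is no separate result. The Cyp2c array on chromosome 19 (39007019 to 40187333) was less uniform, with 8 of 14 genes at 1 CPM, 5 higher and 1 lower in NEC than in control, and 2 higher and 3 lower in PCI34051+NEC than in NEC. Over all genes, 24.2% were higher and 22.9% lower in NEC than in control. These shares were 25% and 25.6% in PCI34051+NEC against NEC, and 6.55% each way against control. Across the 5 families 25 members (15.2%) share at least 10% of their 150-base stretches with another gene, against 10.3% of all genes. Of those 25, 13 had no count in any library. The levels of such genes, among them Gstp1, Gstp2 and the Ugt1a genes at 0, depend on how reads matching several genes were treated, which is not given in the sources used here.

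Among receptors and sensors that set these enzymes, none was counted as higher in NEC than in control. Of 22 measured, 0 were higher and 7 lower in NEC than in control (median log2 fold -0.76), 13 were higher and 0 lower in PCI34051+NEC than in NEC (median 1.24), and 3 were higher and 1 lower in PCI34051+NEC than in control (median 0.34). Ahr, the aryl hydrocarbon receptor, was at 14.7, 4.57 and 18.4 CPM, and its partner Arnt at 58.5, 19.0 and 71.6 CPM. Nfe2l2, which encodes NRF2, was at 66.8, 19.0 and 79.9 CPM. These 3 were lowest in NEC and within 1.5-fold between control and PCI34051+NEC. Ppara, the fatty acid receptor, was at 5.73, 11.1 and 46.3 CPM, 8.09-fold higher (6.49 to 10.2) in PCI34051+NEC than in control, and Hnf4g was at 42.7, 24.7 and 124 CPM. Nr1i2, which encodes PXR, was at 106, 166 and 158 CPM, less than 2-fold apart in every comparison. The lowest in NEC relative to control were Cebpa, at 181, 49.6 and 105 CPM, and Cdx2, the intestinal identity factor, at 299, 77.4 and 213 CPM. Cebpb was at 87.0, 159 and 136 CPM, Rxrb, a shared partner of these receptors, at 53.6, 93.9 and 71.9 CPM, and Ppard at 23.8, 38.7 and 23.7 CPM. Nr1h3, the sterol receptor LXR alpha, was 2.58-fold lower (2.23 to 2.99) in PCI34051+NEC than in control.

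Genes known to respond to such receptors did not stand in 1 order. Of 8 AHR targets, 4 of which are members here, 6 were measured in NEC against control and 3 were higher and 0 lower (median 0.71). In PCI34051+NEC against NEC 1 of 6 was higher and 3 lower (median -0.58), and against control 1 of 4 was higher and 0 lower (median 0.70). Of 12 NRF2 targets, 5 of them members, 5 were higher and 6 lower in NEC than in control (median -0.26), 5 higher and 2 lower in PCI34051+NEC than in NEC (median 0.61), and 5 of 11 higher and 0 lower in PCI34051+NEC than in control (median 0.67). Of 13 PPARA targets, 2 of them members, 6 were higher and 5 lower in NEC than in control (median 0.64), 7 higher and 1 lower in PCI34051+NEC than in NEC (median 1.63), and 4 of 11 higher and 0 lower in PCI34051+NEC than in control (median 0.76). Glucocorticoid-responsive genes were mostly higher in both model libraries, with 7 of 10 higher in NEC than in control (median 2.04) and 9 of 10 in PCI34051+NEC (median 3.37). Of these, 6 were higher and 0 lower in PCI34051+NEC than in NEC (median 1.16). Beside all these lists, and the receptors and sensors above, stand the shares over all genes. They were 24.2% higher and 22.9% lower in NEC than in control, 25% and 25.6% in PCI34051+NEC against NEC, and 6.55% each way against control. Fkbp5, the best known of the glucocorticoid-responsive genes, was at 5.35, 292 and 471 CPM.

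Among enzymes and carriers that supply the cofactors, more were lower than higher in NEC. Of 23 measured, 2 were higher and 10 lower in NEC than in control (median -0.82), and 14 were higher and 0 lower in PCI34051+NEC than in NEC (median 1.23). In PCI34051+NEC against control 5 of 22 were higher and 0 lower (median 0.41). Among all genes, 24.2% were higher and 22.9% lower in NEC than in control. The shares were 25% and 25.6% in PCI34051+NEC against NEC, and 6.55% each way against control. Por, the reductase that feeds electrons to microsomal P450s, was at 81.4, 98.8 and 329.7 CPM, 4.05-fold higher (3.81 to 4.31) in PCI34051+NEC than in control. Cyb5r3, the cytochrome b5 reductase, was highest in NEC, at 135, 207 and 161 CPM. For glucuronidation, the enzymes that make UDP-glucuronic acid were lowest in NEC, Ugp2 with 193, 66.3 and 214 CPM and Ugdh with 255, 119 and 397 CPM. Gusb, the lysosomal enzyme that cleaves glucuronides, was at 782, 71.1 and 469 CPM, 11.0-fold lower (10.2 to 11.8) in NEC than in control. For sulfation, Papss1, which makes the sulfate donor, was at 370.2, 123 and 578 CPM. Slc26a2, a sulfate carrier, was at 153, 123 and 631 CPM, and Bpnt1, which clears the spent donor, was at 63.2, 29.1 and 224 CPM. Papss2 was at 43.0, 9.86 and 48.8 CPM and Slc35b2, which carries the donor into the Golgi, at 80.7, 26.9 and 59.6 CPM. Bpnt1 and Slc26a2 were thus highest in PCI34051+NEC beside Sult1d1. For glutathione, Gclm was at 208, 75.9 and 294 CPM and Gss at 424, 186 and 438 CPM, both lowest in NEC, while Ggt1, which breaks glutathione down outside the cell, was at 8.31, 48.1 and 33.0 CPM.

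Few transporters of the products were measured, and the lower share lay near that of all genes in both comparisons with NEC. Over all genes, 24.2% were higher and 22.9% lower in NEC than in control. For PCI34051+NEC against NEC these shares were 25% and 25.6%, and against control 6.55% each way. Of 15 measured, 6 were higher and 4 lower in NEC than in control (median 0.92), 6 higher and 4 lower in PCI34051+NEC than in NEC (median 0.76), and 5 higher and 0 lower in PCI34051+NEC than in control (median 0.51). Abcc2, the apical exporter of glucuronides, was at 1081, 514 and 1765 CPM, and Abcg2, which exports sulfates and drugs, was at 355, 61.4 and 351 CPM. Abcb1b, a P-glycoprotein gene, was at 0.378, 11.0 and 2.04 CPM and Slc47a1, an organic cation exporter, at 5.60, 7.49 and 35.0 CPM. Abcc2 and Abcg2 were lowest in NEC, Abcb1b highest there, and Slc47a1 highest in PCI34051+NEC. Abcc1 and Abcc3, basolateral exporters, were also highest in NEC, at 7.42, 25.8 and 4.66 CPM for Abcc1 and 4.97, 25.5 and 6.63 CPM for Abcc3. Abcc6 was at 93.3, 53.2 and 49.8 CPM and the prostaglandin carrier Slco2a1 at 284, 87.2 and 304 CPM. The carnitine-related carriers Slc22a4, at 3.08, 7.76 and 19.9 CPM, and Slc22a5, at 137, 42.8 and 191 CPM, were highest in PCI34051+NEC.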

How the data were processed

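Per the labels' protocols, TRIzol-extracted RNA was read in pairs of 150 bp on a NovaSeq. Raw read counts per gene symbol were deposited by the authors in a table whose name mentions HTSeq. Per the submitters' processing notes, the build was mm10. Aligner, annotation, strand setting and treatment of reads matching several genes: not given in the sources used here. The third column's name matched its sample only in part (it starts with PCI and ends in +NEC7), and every PCI34051+NEC value rests on that match.

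TMM scaling used edgeR 4.0.16 under R 4.3.3. Log2 folds used CPM plus a pseudocount of 1, at a minimum of 1 CPM and a 2-fold threshold. Intervals are exact conditional binomial (Clopper-Pearson), 95%. Molecular identifiers are not mentioned for these PCR-amplified reads, so intervals and limits cover counting error only. Coordinates and 150-base stretches came from GENCODE M21 (21926 of 21983 symbols matched, all 165 members among them). Python 3.11.15 with pandas 2.3.3, scipy 1.17.1 and matplotlib 3.10.9 was used. The procedure was tested on simulated counts that held counting error alone, so that test does not cover spread between animals.

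Members and gene lists were chosen with earlier results of these data known. Named members were the 3 of each family with the highest CPM per kb and, per comparison, up to 4 each way with the largest log2 fold at 5 CPM or more, and, from the other lists, genes with the 2 largest folds each way. Named outside the rule, after their values were seen, were further genes of the same subfamilies, sex-linked and marker genes, further receptors, carriers and cofactor genes, and the genes shown with promoters. Alternatives were scaling by total counts or with DESeq2 1.42.0 size factors, TMM within each pair, TMM without mitochondrial and the 50 most abundant genes, pseudocounts of 0.25 and 4, no minimum or 5 CPM, thinning, a 1.5-fold threshold and sums per kb. Centring over GC content and exon length, and leaving out genes with shared stretches, were added after the data were seen.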

Additional observations from a re-analysis of the deposited data

How the results depend on the processing

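With 1 library per group, none of these values has a replicate check, and intervals cover counting error only. No paired analysis was possible because each group has 1 library, and no library could be left out in turn. With DESeq2 size factors, TMM within each pair or TMM without mitochondrial and the most abundant genes, the counts of higher and lower members stayed at 36 and 16, 23 and 26, and 27 and 7. With total counts they were 36 and 16, 23 and 29, and 24 and 10. Of 3003 recomputed folds of named genes, 2789 stayed within their counting interval and 214 moved further. Among folds that were at least 2-fold, 0 turned direction, and turns of smaller folds were not counted. Settings that change only the minimum, the threshold or the genes left out keep a gene's fold as it was. Part of the 2789 was therefore fixed in advance.

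Settings that treat low genes differently moved some results. In NEC against control, the members higher numbered 13 with a pseudocount of 4 and 16 at a minimum of 5 CPM, where the median log2 fold turned to -0.10 and that of CES to -1.54. In PCI34051+NEC against NEC, the members lower numbered 8 with a pseudocount of 4 and 11 at a minimum of 5 CPM. Their median was -0.13 with no minimum, 0.85 at a minimum of 5 CPM and -0.035 with the GC and length trend removed. In that comparison the SULT median turned to 0.069 with a pseudocount of 4, to 0.41 with no minimum and to 0.57 at 5 CPM, where the CYP median turned to 0.31 and the CES median to 1.46. In PCI34051+NEC against control, the members lower numbered 2 with a pseudocount of 4, 2 at a minimum of 5 CPM and 16 at 1.5-fold. The CYP median there turned to -0.079 with no minimum and the CES median to 0.020 with the GC and length trend removed.

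Summed per kb of exon, ratios moved beyond counting error. For NEC against control they were 0.772 for CYP, 0.773 for GST and 0.673 over all members. For PCI34051+NEC against NEC they were 2.19 for CYP, 2.38 for GST and 2.90 over all. For PCI34051+NEC against control they were 1.69 for CYP, 2.90 for UGT, 1.84 for GST and 3.67 for SULT. The cause was not tested.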

Other observations

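Enzymes of xenobiotic metabolism outside the 5 families gave values of the same kind. Of 40 other phase I enzymes measured in NEC against control, 11 were at least 2-fold higher and 13 lower (median log2 fold -0.28), and in PCI34051+NEC against NEC 18 of 40 were higher and 9 lower (median 0.76). In PCI34051+NEC against control 9 of 35 were higher and 1 lower (median 0.31). Over all genes, 24.2% were higher and 22.9% lower in NEC than in control, so the higher phase I share lay near that of all genes. For PCI34051+NEC against NEC the shares over all genes were 25% and 25.6%, and against control 6.55% each way. Fmo2, a flavin monooxygenase, was at 10.1, 117 and 43.4 CPM in the order control, NEC, PCI34051+NEC, 11.7-fold higher (9.88 to 13.8) in NEC than in control. Adh6a, an alcohol dehydrogenase, had 0, 253 and 10 counts, so NEC was at least 122-fold higher than control, taking 3 counts as the limit for the control library. The aldo-keto reductases differed among themselves: Akr1b8 was at 2.01, 16.9 and 17.5 CPM, while Akr1c13 was at 187, 20.6 and 174 CPM. Maob, which oxidises amines, was at 222, 41.8 and 333 CPM and the paraoxonase Pon3 at 105, 9.59 and 52.9 CPM. Akr1c14 was at 14.0, 3.01 and 5.78 CPM, and Ephx1, the microsomal epoxide hydrolase, was highest in NEC, at 4.34, 17.8 and 1.71 CPM.

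Of 13 other phase II enzymes measured in NEC against control, 3 were higher and 6 lower (median -0.51). In PCI34051+NEC against NEC 7 of 14 were higher and 2 lower (median 0.96), and against control 1 of 12 was higher and 1 lower (median 0.12). The higher share in NEC against control, and both shares in PCI34051+NEC against control, lay near those of all genes given above. Mgst2, a microsomal glutathione transferase outside the GST gene symbols used, was at 55.9, 252 and 136 CPM, 4.51-fold higher (4.18 to 4.87) in NEC than in control. Nat8, an acetyltransferase of glutathione conjugates, was at 75.9, 7.12 and 74.6 CPM and Hpgds, a sigma-class glutathione transferase that makes prostaglandin D, at 103, 8.40 and 59.1 CPM, both lowest in NEC. Mgst3 was at 58.9, 61.2 and 114 CPM and the sulfur dioxygenase Ethe1 at 25.9, 20.6 and 11.6 CPM.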
